A study of Mus musculus with 23 samples.

Results

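The 40 genes described here encode the machinery of DNA replication and the cell cycle, and were read from bulk liver RNA of CYP2E1-KO and WT mice. They were chosen by gene name from a list, and all 40 matched 1 gene each of the 65535 genes in the table. CYP2E1 is a hepatocyte cytochrome P450 enzyme that oxidises ethanol, acetone and several drugs. The KO mice were of the line 129/Sv-Cyp2e1tm1Gonz/J, whose Cyp2e1 gene is disrupted in the germ line, and the WT mice of 129S1/SvImJ. There were 6 Female KO, 5 Female WT, 6 Male KO and 6 Male WT livers, which the submitters call biological replicates. All were kept on normal chow, and the age is given as 12 to 13 weeks in one label and as 16 weeks in another. Each genotype is a separate line, so the disrupted gene and any other difference between the lines cannot be told apart.

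Before DNA is copied, the origin recognition complex, CDC6 and CDT1 load rings of the MCM helicase onto origins, and the rings fire once cyclin-dependent kinases become active. The G1 cyclins with CDK4 and CDK2 phosphorylate RB1, which frees E2F factors to switch on genes for helicase subunits, clamp loaders and nucleotide synthesis, while CDKN1A and CDKN1B inhibit the kinases. Most hepatocytes of an undisturbed adult liver rest outside the cycle and re-enter it after injury or loss of tissue. In bulk liver, fewer cells of a type and less RNA per cell cannot be told apart.

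The levels were low, and 14 of the 40 genes were too sparse to judge because they did not pass the filter on low counts. They are Mcm4, Cdc6, Gins2, Fen1, Rrm2, Ccne1, Ccne2, Cdk2, Ccna2, Ccnb1, Ccnb2, Cdk1, Birc5 and Plk1. The other 26 were tested. The filter keeps a gene that has enough counts in about as many libraries as the smallest group holds, so a gene that is high in 1 group can enter through that group alone. Counts and medians over the 26 are therefore given as descriptions and do not stand for all 40 genes. Totals were between 4314392 and 5333015 counts per library in Female KO, 4047821 and 6516749 in Female WT, 1538889 and 5939170 in Male KO, and 4366909 and 9874733 in Male WT. The shallowest library was Male KO replicate 3, which together with Female WT replicate 5 also had the highest shares of mitochondrial counts (16.1% and 16.2%). Cyp2e1, the disrupted gene, averaged 26.3 ± 7.29 CPM (counts scaled to the library total) in Female KO and 398 ± 63.4 CPM in Female WT (SD, n = 6 and 5), and 32.4 ± 13.1 CPM in Male KO and 476 ± 54.0 CPM in Male WT (SD, n = 6 each). Its libraries did not overlap between genotypes in either sex, which fits the labels.

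Promoter sequences are shown for 5 genes: the helicase subunits Mcm2, Mcm6 and Mcm7 and the reductase subunit Rrm1, which had the lowest p-values of their roles in females, and Mcm10, which differed between the sexes. Lig1 and Rfc5, with the lowest p-values of the tested genes in females and averaged over the sexes, are not shown. Each line gives the 120 bases before the annotated start, 5′ to 3′, from the RefSeq table of GRCm38.p6.
Mcm2: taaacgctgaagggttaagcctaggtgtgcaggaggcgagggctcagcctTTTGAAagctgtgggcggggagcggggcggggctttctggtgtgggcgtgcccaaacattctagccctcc
Mcm6: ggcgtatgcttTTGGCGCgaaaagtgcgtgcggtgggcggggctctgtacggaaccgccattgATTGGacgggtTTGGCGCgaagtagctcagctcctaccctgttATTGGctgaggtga
Mcm7: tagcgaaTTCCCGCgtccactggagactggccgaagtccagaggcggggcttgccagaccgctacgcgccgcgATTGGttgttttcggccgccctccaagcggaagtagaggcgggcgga
Rrm1: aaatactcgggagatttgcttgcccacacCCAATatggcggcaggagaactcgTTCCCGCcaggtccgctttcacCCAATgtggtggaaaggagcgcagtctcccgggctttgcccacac
Mcm10: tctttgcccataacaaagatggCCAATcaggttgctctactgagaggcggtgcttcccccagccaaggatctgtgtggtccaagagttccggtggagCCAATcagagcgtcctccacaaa
The positions are chr6:88898781-88898900, minus strand, for Mcm2, chr1:128359706-128359825, minus strand, for Mcm6, and chr5:138171267-138171386, minus strand, for Mcm7. They are chr7:102441575-102441694, plus strand, for Rrm1, and chr2:5012792-5012911, minus strand, for Mcm10. Capitals mark matches, on either strand, to the E2F-type letters TTCCCGC and TTGGCGC, to the CCAAT box, and to the CHR letters TTTGAA and TTCGAA, a cell cycle promoter element. Mcm6 held 2 E2F-type matches and 2 CCAAT boxes in these bases, and Mcm7 and Rrm1 held both kinds of motif as well. Mcm10 held 2 CCAAT boxes and no E2F-type letters, and Mcm2 held 1 CHR match.

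Over windows from 250 bases before to 50 after the start, 33 of the 40 genes had an entry, in 39 windows. Ccnd1, Ccnd2, Rb1, Ccne2, Ccna2, Gins2 and Mcm4 had none. E2F-type letters stood in 38.5% of these windows, against 6.81% of the 32851 windows of all genes. The share was 77.8% among the 9 windows of the licensing and helicase genes and 33.3% among the 9 of the fork genes. Of the fork genes, Lig1 held an E2F-type match 4 bases after the start, and Rfc5 held none of these motifs. None of the 4 windows of the inhibitor and E2F-RB genes held them. The CHR letters stood in 71.4% of the 7 windows of genes of S to M phase, against 19.2% of all windows, and CCAAT boxes in 85.7% of them and in 77.8% of those of the licensing and helicase genes, against 37.4% of all windows. These matches describe letters in a window and show no binding.

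In females, the subunits of the MCM ring had higher mean levels in KO livers, but no gene passed the test. Mcm2 ranged from 1.49 to 6.91 CPM with a median of 3.58 in Female KO, against 1.96, 2.19, 1.68, 1.06 and 1.42 CPM in Female WT. All but 1 of the Female KO livers lay above every Female WT liver, and replicate 6 lay among them. The log2 fold change was 1.20 (SE 0.35), with an unadjusted p of 0.00218 and an adjusted p of 0.231 by edgeR. Mcm6 ranged from 0.872 to 6.89 CPM with a median of 3.81 in Female KO, against 1.72, 0.996, 1.07, 1.95 and 2.13 CPM in Female WT. Female KO replicates 1 and 6 lay below all Female WT livers, and the other Female KO livers lay above them. Its log2 fold change was 1.25 (SE 0.41, edgeR adjusted p = 0.298). Mcm6 is at the edge of the filter, and it left the set of tested genes in 11 of the 23 fits without 1 library. It passed mainly through Female KO, where it is high, with counts of 4, 31, 14, 26, 21 and 5. Female WT held 7, 5, 7, 11 and 12 counts. Its differences from Female KO are therefore descriptions.

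Mcm7 ranged from 11.1 to 23.7 CPM with a median of 17.7 in Female KO, against 13.6, 12.7, 12.2, 10.4 and 11.2 CPM in Female WT. Its log2 fold change was 0.58 (SE 0.19, edgeR adjusted p = 0.298). Again all but Female KO replicate 6 lay above the Female WT livers. Mcm5 averaged 4.53 ± 3.63 CPM in Female KO and 2.40 ± 0.77 CPM in Female WT (SD, n = 6 and 5). Female KO replicates 2, 4 and 5 lay above every Female WT liver and replicates 3 and 6 below them all. Without replicate 4 its log2 fold change was 0.49 instead of 0.92. Mcm5 passed the filter partly through Female KO, where it is high, with counts of 12, 36, 7, 42, 21 and 4. Female WT held 7, 14, 12, 12 and 20 counts of Mcm5. Its differences from Female KO are therefore descriptions. Mcm3 averaged 3.35 ± 1.09 CPM in Female KO and 2.23 ± 0.64 CPM in Female WT, a log2 fold change of 0.58 (SE 0.26). Mcm4, the remaining ring subunit, was too sparse, with 56 counts over 6 Female KO libraries and 30 over 5 Female WT libraries. In CPM over the summed libraries that is 2.01 (exact Poisson interval 1.52 to 2.62) and 1.12 (0.76 to 1.60), where the 95% intervals cover counting error only.

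The summed CPM of the 6 ring subunits shows how the livers differed among themselves. Mcm7 is its largest part, averaging 17.4 CPM in Female KO and 12.0 CPM in Female WT, and levels are not comparable between genes. Mcm7 overlaps Cops6 and Ap4m1 on the other strand and Mir25, Mir93 and Mir106b on its own. It had fractional counts in 7 libraries, so reads may have been divided between genes. Sums of the 6 subunits were 26.1, 45.7, 29.8, 50.9, 39.0 and 17.2 CPM in the Female KO libraries. In the Female WT libraries they were 21.7, 23.0, 19.4, 19.8 and 21.3 CPM. The Female KO livers spread far wider than the Female WT livers, and 1 of them was the lowest of all females. In Female KO replicates 2 and 5 all 6 subunits exceeded every Female WT library, in replicates 3 and 4 it was 5 subunits, in replicate 1 it was 3, and in replicate 6 it was 0. These counts include the sparse Mcm4. The matching share over all genes was not computed, so they are descriptions only. Sums in males were 27.4, 28.2, 21.9, 16.3, 14.7 and 19.1 CPM in KO and 19.3, 17.1, 18.5, 21.8, 18.3 and 17.2 CPM in WT. The male groups overlapped, with Male KO replicates 1 and 2 well above every Male WT library, replicate 3 just above the highest of them (21.8 CPM), and replicates 4 and 5 below them all. Of the 5 tested ring subunits in males, the log2 fold changes lay between 0.09 (Mcm3) and 0.45 (Mcm6, SE 0.52).

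**Figure D1:**
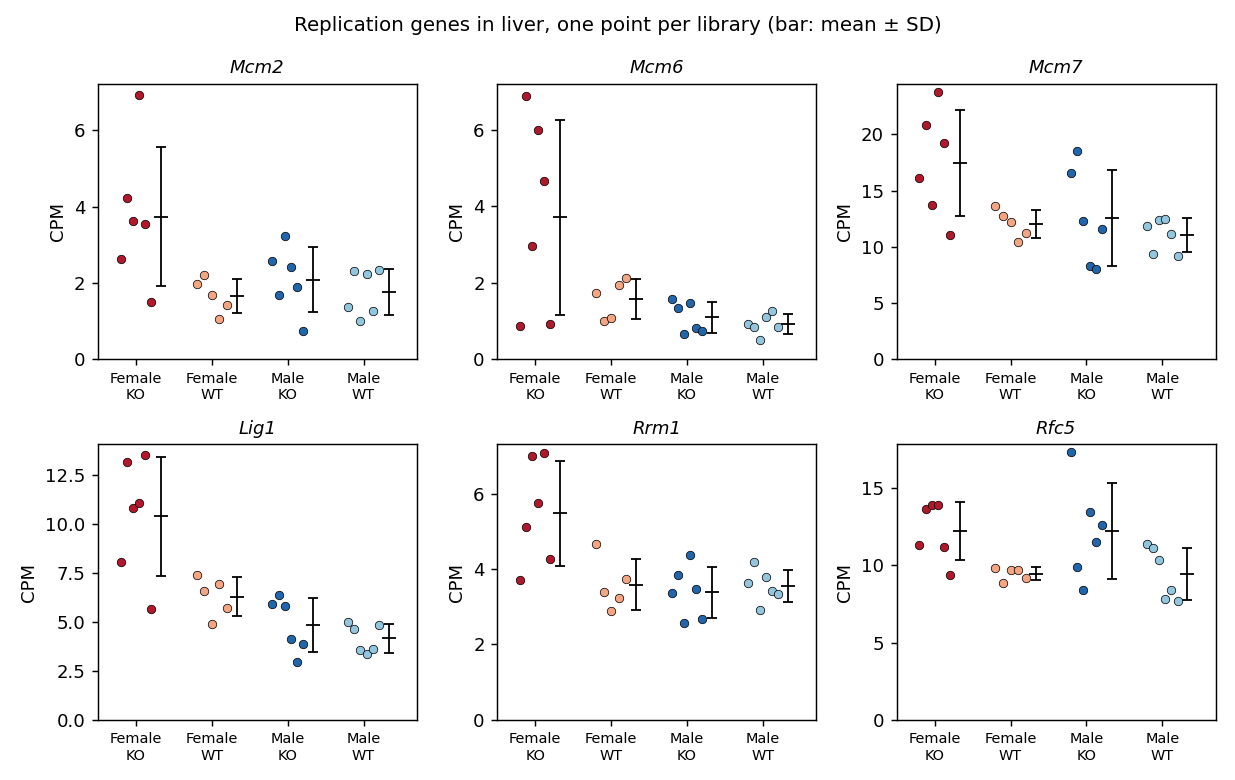
Deposited CPM of replication genes in each liver, with groups along the horizontal axis (points are libraries, the bar marks the mean and the error bar the SD). In Mcm2, Mcm6 and Mcm7 most Female KO points stand above the Female WT points. Female KO replicate 6 does not, nor does replicate 1 in Mcm6, and the male groups overlap.

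Cdt1, which loads the ring, averaged 2.7 ± 1.2 CPM in Female KO and 2.56 ± 0.56 CPM in Female WT (SD, n = 6 and 5). In males it averaged 1.26 ± 0.74 CPM in KO and 1.33 ± 0.72 CPM in WT (SD, n = 6 each). Neither genotype difference passed the test, and its libraries overlapped. Cdc6, its partner in loading, had 5 counts in Female KO, 4 in Female WT, 2 in Male KO and 0 in Male WT. The exact 95% Poisson interval of that 0 reaches up to 0.106 CPM over the group. Gins2, a subunit of the active helicase, had 15, 12, 15 and 10 counts in Female KO, Female WT, Male KO and Male WT. Neither passed the filter. With a lower filter Gins2 had a log2 fold change of 0.30 (SE 0.70) in females and 0.97 (SE 0.71) in males, and Cdc6 was tested only with no filter, where it was not called between genotypes.

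Mcm10, a factor that helps the helicase fire and unwind, differed between the sexes, while its genotype differences did not pass the test. Among males it ranged from 78.4 to 153 CPM with a median of 106 in KO, and from 77.4 to 134 CPM with a median of 99.9 in WT. Among females it ranged from 25.8 to 34.6 CPM with a median of 28.2 in KO, and in WT it was 27.7, 28.7, 30.7, 27.1 and 34.9 CPM. Every male liver lay above every female liver of both genotypes. Mcm10 was 4.21-fold higher in males than in females in KO (log2 2.07, SE 0.17, edgeR adjusted p = 4.41e-10) and 3.60-fold higher in WT (log2 1.85, SE 0.17, edgeR adjusted p = 1.04e-08). It was called in both genotypes in each of the fits without 1 library and by DESeq2 and limma-voom. Its fold change between KO and WT was -0.0037 on the log2 scale in females and 0.22 (SE 0.16) in males, and the difference of the 2 was 0.23 (SE 0.23, edgeR adjusted p = 0.944). Male KO replicates 1, 2 and 3 held 144, 153 and 125 CPM, above the other 3 Male KO livers at 78.4, 87.1 and 84.3 CPM. In the GENCODE annotation no other gene overlaps Mcm10. Its neighbour Optn averaged 33.9 ± 7.06 CPM in Male KO and 45 ± 9.33 CPM in Female KO (SD, n = 6 each), a log2 difference of -0.26 that did not pass the test (edgeR adjusted p = 0.204).

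None of the other tested genes of licensing and helicase function was called higher in males. In WT livers the male-to-female log2 fold changes of Mcm2, Mcm3, Mcm5, Mcm6 and Mcm7 lay between -0.73 and 0.15, and none was called. In KO livers all 5 were negative, between -1.53 and -0.35. Mcm6 was the only one called there: it averaged 1.09 ± 0.41 CPM in Male KO and 3.72 ± 2.55 CPM in Female KO (SD, n = 6 each), 2.89-fold lower in males (edgeR adjusted p = 0.0283). The groups overlapped. The call was lost without Male KO replicate 5 (edgeR adjusted p = 0.0586) or replicate 6 (0.0689) and with limma-voom, plain (0.197) or with sample weights (0.245). Mcm6 was not tested in the fit of the KO groups alone. No male library held more than 8 counts of it, so it passed the filter through the female libraries, mainly Female KO. The call is therefore given as a description only. The sex by genotype interaction of Mcm6 was -0.80 (SE 0.68, edgeR adjusted p = 0.934). Cdt1 had lower mean levels in males than in females in both genotypes. The log2 fold changes were -0.91 (SE 0.41) in KO and -0.82 (SE 0.39) in WT, which did not pass (edgeR adjusted p = 0.170 and 0.287). Cdt1 passed the filter mainly through the female libraries, where it is high. Its counts were 5, 20, 11, 16, 10 and 13 in Female KO and 10, 12, 2, 0, 5 and 4 in Male KO. In WT they were 10, 16, 11, 16 and 15 in females and 8, 5, 12, 1, 13 and 8 in males. These sex differences are therefore descriptions.

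None of the 5 tested genes of fork elongation was called between KO and WT, and their averaged log2 fold changes lay between 0.18 (Pcna) and 0.57 (Rfc4). Lig1, which seals the gaps between Okazaki fragments, ranged from 5.67 to 13.5 CPM with a median of 10.9 in Female KO, against 7.37, 6.57, 4.88, 6.90 and 5.69 CPM in Female WT. All Female KO livers but replicate 6 lay above the Female WT livers. The log2 fold change was 0.76 (SE 0.20, unadjusted p = 0.000793), the lowest p among these genes in females, and the edgeR adjusted p was 0.155. Without Female KO replicate 6 it passed, in females (edgeR adjusted p = 0.0374) and averaged over the sexes (0.0481). In males it averaged 4.84 ± 1.37 CPM in KO and 4.16 ± 0.73 CPM in WT (SD, n = 6 each), a log2 fold change of 0.27 (SE 0.22). Lig1 was 1.96-fold lower in Male KO than in Female KO (edgeR adjusted p = 0.00228), with groups that overlapped, and this call held in all 23 fits without 1 library. In WT the difference was -0.48 (SE 0.21, edgeR adjusted p = 0.227), and the interaction was -0.49 (SE 0.30, edgeR adjusted p = 0.934). Lig1 overlaps Zswim9 on the other strand.

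Rfc3, Rfc4 and Rfc5 encode small subunits of the clamp loader, which places the PCNA ring on DNA. Rfc5 ranged from 9.38 to 13.9 CPM with a median of 12.5 in Female KO, against 9.82, 8.86, 9.69, 9.73 and 9.16 CPM in Female WT. In males it ranged from 8.39 to 17.4 CPM with a median of 12.1 in KO and from 7.68 to 11.4 CPM with a median of 9.38 in WT. The groups overlapped in both sexes. Averaged over the sexes its log2 fold change was 0.44 (SE 0.11), with an unadjusted p of 0.000589 and an edgeR adjusted p of 0.0715. DESeq2 called it (adjusted p = 0.0412), as did limma-voom with sample weights (0.0137). These fits called 1.46% and 5.52% of all genes, against 0.431% in the main fit. Rfc5 was also called by edgeR without Male KO replicate 2 (0.0199) or without Male WT replicate 2 (0.0484). Those fits called 1.66% and 0.938% of all genes. Rfc5 overlaps Wsb2 on the other strand and had fractional counts in 11 libraries, so reads may have been divided between genes. Rfc4 had averaged log2 fold change 0.57 (SE 0.19, edgeR adjusted p = 0.157) and Rfc3 0.25 (SE 0.14, edgeR adjusted p = 0.390). Rfc4 overlaps Eif4a2 on the other strand. Among males, Rfc3 and Rfc4 were highest in Male KO replicate 3, the shallowest library, at 8.39 and 6.45 CPM from 13 and 10 counts. Without it their log2 fold changes in males were 0.39 and 0.47 instead of 0.49 and 0.59. Pcna, the sliding clamp, averaged 5.81 ± 1.08 CPM in Female KO and 5.29 ± 0.34 CPM in Female WT, and 5.56 ± 1.05 CPM in Male KO and 5.20 ± 0.60 CPM in Male WT. The 95% interval of its averaged log2 fold change was -0.06 to 0.42. Fen1, the flap nuclease, was too sparse, with 38, 32, 31 and 21 counts in Female KO, Female WT, Male KO and Male WT.

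Of the genes of nucleotide supply, Rrm1, the large subunit of ribonucleotide reductase, ranged from 3.7 to 7.09 CPM with a median of 5.44 in Female KO, against 4.66, 3.39, 2.90, 3.24 and 3.74 CPM in Female WT. Female KO replicates 2, 3, 4 and 5 lay above all Female WT livers and replicates 1 and 6 did not. The log2 fold change was 0.66 (SE 0.19, unadjusted p = 0.00203, edgeR adjusted p = 0.231). In males Rrm1 averaged 3.38 ± 0.68 CPM in KO and 3.55 ± 0.43 CPM in WT (SD, n = 6 each), a log2 fold change of 0.04 (SE 0.20). The interaction was -0.63 (SE 0.28, unadjusted p = 0.0333, edgeR adjusted p = 0.848). Between the sexes in KO the log2 difference was -0.54 (SE 0.19, edgeR adjusted p = 0.0882), and it passed without Female KO replicate 1 (0.0404). Rrm2, the small subunit, was too sparse, with 25, 21, 33 and 33 counts in Female KO, Female WT, Male KO and Male WT. Tyms and Dut, which make and guard the thymidine precursor pool, and Tk1, which salvages thymidine, gave averaged log2 fold changes of 0.18 (SE 0.14), 0.23 (SE 0.12) and -0.13 (SE 0.21), and none passed. Tk1 overlaps Afmid on the other strand and had fractional counts in 11 libraries.

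Among the G1 cyclins and kinases, Ccnd1, the cyclin D1 gene, was lower in males than in females in both genotypes. Among males it ranged from 17.2 to 29.0 CPM with a median of 22.9 in KO, and from 11.2 to 17.5 CPM with a median of 13.8 in WT. Among females it ranged from 50 to 166 CPM with a median of 109 in KO, and was 98.2, 117, 113, 61.4 and 51.7 CPM in WT. No male liver reached the lowest female liver. The mitochondrial share of counts was 7.32% to 16.1% in Male KO and 9.20% to 14.9% in Female KO, and 7.87% to 9.35% in Male WT and 9.26% to 16.2% in Female WT. In WT it was mostly lower in males, and its part in the sex differences was not tested. Ccnd1 was 4.14-fold lower in males in KO (log2 -2.05, SE 0.22, edgeR adjusted p = 1.33e-07) and 5.81-fold lower in WT (log2 -2.54, SE 0.23, edgeR adjusted p = 4.77e-09). Both calls held in all 23 fits without 1 library and with DESeq2 and limma-voom. Between genotypes, Ccnd1 had the lowest p of these genes in males: the log2 fold change was 0.78 (SE 0.23, unadjusted p = 0.00222, edgeR adjusted p = 0.185), and Male KO replicates 1, 2, 3, 5 and 6 lay above every Male WT liver. In females it was 0.29 (SE 0.21), and the interaction was 0.49 (SE 0.31, edgeR adjusted p = 0.934). Averaged over the sexes it was 0.54 (SE 0.16, edgeR adjusted p = 0.109). Ccnd1 passed with limma-voom with sample weights (adjusted p = 0.0398) and with no filter (0.0196). Those fits called 5.52% and 0.792% of all genes, against 0.431% in the main fit.

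The other D cyclins were not called between the sexes. Ccnd2 averaged 35.3 ± 10.4 CPM in Male KO and 39.0 ± 10.2 CPM in Female KO (SD, n = 6 each). In WT it averaged 37.9 ± 6.75 CPM in males and 47.9 ± 0.58 CPM in females (SD, n = 6 and 5). The 5 Female WT livers lay between 47.4 and 48.9 CPM, while the Female KO livers lay between 23.3 and 48.7 CPM. Ccnd3 had male-to-female log2 fold changes of -0.02 (SE 0.10) in KO and -0.16 (SE 0.10) in WT. Cdk4, the kinase of the D cyclins, averaged 33.1 ± 1.38 CPM in Male KO and 29.3 ± 2.15 CPM in Female KO (SD, n = 6 each), 1.25-fold higher in males (edgeR adjusted p = 0.0307). That call was lost in 7 of the 23 fits without 1 library, those without Female KO replicate 1, 2 or 6 or Male KO replicate 3, 4, 5 or 6, where the adjusted p lay between 0.0534 and 0.0789. It was also lost with a lower filter (0.0770), no filter (0.401) and a fit of the KO groups alone (0.139). Cdk4 overlaps Tspan31 on the other strand. Ccne1, Ccne2 and Cdk2, the cyclins and kinase of the G1 to S step, were too sparse, with totals of 42, 75 and 106 counts over all 23 libraries.

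**Figure D2:**
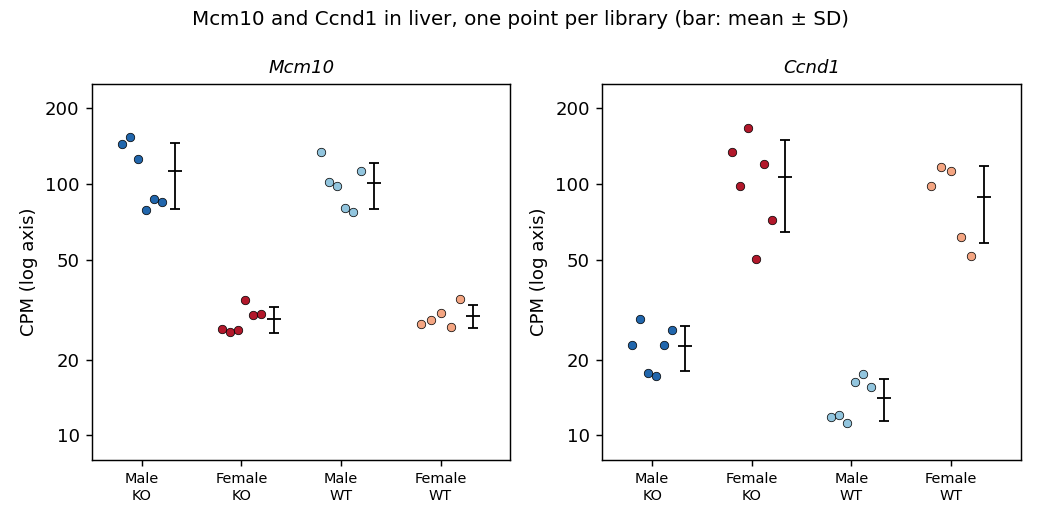
Deposited CPM on a log axis for genes called between the sexes, by library, with male groups left of female groups within each genotype (bars mark means). Mcm10 in males lies above every female liver and Ccnd1 below every female liver, in KO and in WT alike.

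Of the 26 tested genes, 5 were called between males and females in KO (7.44% of the 11370 genes tested were called) and 2 in WT (5.61%). The 5 in KO were Mcm10 and Cdk4, higher in males, and Ccnd1, Lig1 and Mcm6, lower in males. Mcm6 entered the test mainly through Female KO, where it is high. Called genes made up 3.67% of all genes in the higher and 3.77% in the lower direction. The 2 in WT were Mcm10, higher in males (2.36% of all genes), and Ccnd1, lower in males (3.25%). At an unadjusted p under 0.05, 3 were higher (12.6% of all genes) and 8 lower (11.5%) in KO. In WT 1 was higher (7.33%) and 3 lower (9.86%). The lower genes include Cdt1 in both genotypes, which entered the test mainly through the female libraries. In KO they also include Mcm5, which entered partly through Female KO. Positive fold changes numbered 9 in KO (50.9% of all genes) and 10 in WT (47.6%). Libraries of the sexes did not overlap for Mcm10, among the 1.19% of all genes in KO and 2.23% in WT that lay apart and higher in males. For Ccnd1 the shares that lay apart and lower were 2.48% in KO and 5.5% in WT. The median log2 fold change of the tested genes was -0.09 in KO and -0.11 in WT, against 0.01 and -0.02 over all genes. The comparisons in KO and in WT share no libraries. The share of all genes called in KO was 15.1% without Male KO replicate 2, 13.9% without Female KO replicate 4 and between 5.22% and 10.8% without any other 1 library.

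The genes of S phase to mitosis were mostly sparse, and 6 of the 8 could not be tested. Top2a, the topoisomerase that untangles chromosomes, ranged from 1.53 to 8.91 CPM with a median of 2.82 in Female KO, against 2.46, 1.39, 1.2, 1.77 and 2.67 CPM in Female WT. Its log2 fold change was 0.95 (SE 0.38, edgeR adjusted p = 0.448). Female KO replicate 3 held the highest value, and without it the log2 fold change was 0.49. In males Top2a averaged 1.34 ± 1.12 CPM in KO and 1.84 ± 0.55 CPM in WT (SD, n = 6 each), and the interaction was -1.19 (SE 0.57, unadjusted p = 0.0478, edgeR adjusted p = 0.880). Between the sexes in KO the log2 difference of Top2a was -1.13 (SE 0.40, edgeR adjusted p = 0.0820). It passed without Male KO replicate 2 (0.0116) or Female KO replicate 6 (0.0474) and with no filter (0.0383), and without Female KO replicate 3 it was -0.65 (0.314). Mki67, the Ki-67 gene, averaged 2.85 ± 2.48 CPM in Female KO and 1.75 ± 0.64 CPM in Female WT, and 1.91 ± 0.46 CPM in Male KO and 1.36 ± 0.75 CPM in Male WT. Its averaged log2 fold change was 0.60 (SE 0.31, edgeR adjusted p = 0.344). Again Female KO replicate 3 held the highest value, 7.43 CPM.

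The untested genes of this role are the cyclins Ccna2, Ccnb1 and Ccnb2, their kinase Cdk1, the survivin gene Birc5 and the mitotic kinase Plk1. Their totals over all 23 libraries were 57, 62, 51, 15, 109 and 39 counts. Birc5 had 41 counts in Female KO, 24 in Female WT, 16 in Male KO and 28 in Male WT. In Female KO replicate 3 it reached 4.67 CPM, Ccnb1 2.93 CPM, Ccnb2 2.55 CPM and Plk1 1.80 CPM, the highest values of each over all libraries. Summed over the 14 sparse genes, that library held 21.7 CPM and the other 5 Female KO libraries between 5.70 and 13.4. The sums averaged 11.5 ± 5.78 CPM in Female KO, 8.35 ± 1.90 in Female WT, 9.53 ± 1.79 in Male KO and 7.22 ± 1.41 in Male WT (SD, n = 6, 5, 6 and 6). The female groups overlapped, as did the male groups. A lower filter, which left 3 sparse genes in place of 14, called none of the added genes between genotypes. The lowest p among them was that of Fen1 in males (log2 1.08, SE 0.47, unadjusted p = 0.0300, edgeR adjusted p = 0.399).

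**Figure D3:**
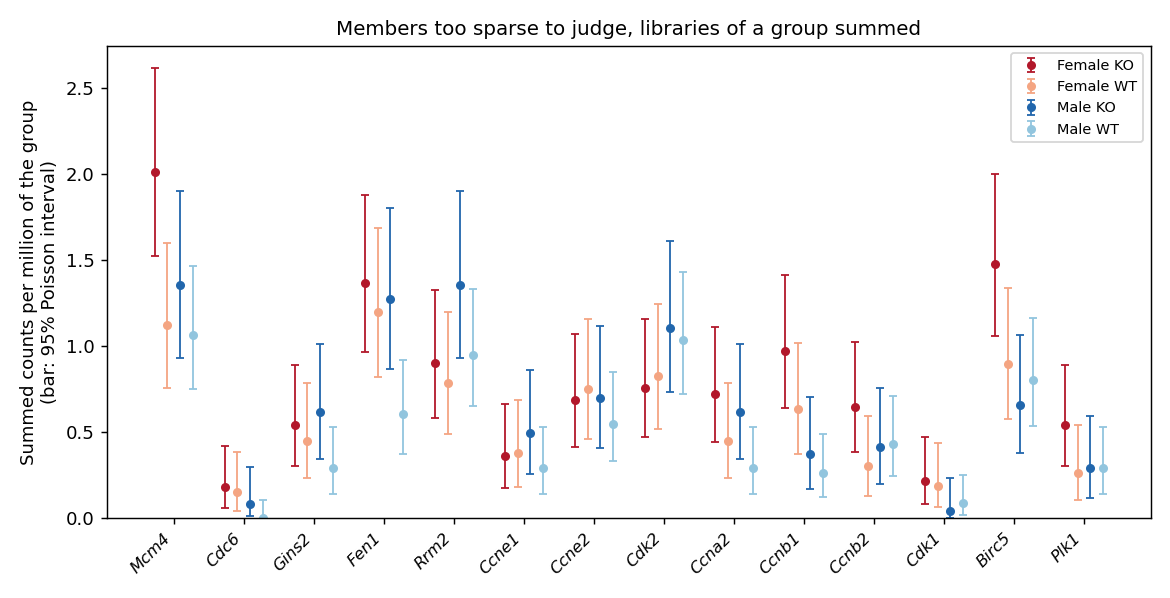
Summed CPM of each of the 14 sparse genes in the 4 groups, with exact 95% Poisson intervals that cover counting error only. The intervals of the groups overlap for most genes and reach 0 or nearly 0 for Cdc6 and Cdk1.

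Of the inhibitors and the E2F-RB pair, all 4 genes were tested and none passed in any comparison. Cdkn1a, the p21 inhibitor that p53 induces, averaged 7.12 ± 2.11 CPM in Female KO and 4.99 ± 1.64 CPM in Female WT (SD, n = 6 and 5), and 7.39 ± 5.13 CPM in Male KO and 5.72 ± 1.55 CPM in Male WT (SD, n = 6 each). Its averaged log2 fold change was 0.44 (SE 0.22, edgeR adjusted p = 0.331). Male KO replicates 2 and 3 held 12.0 and 15.5 CPM, above all other Male KO livers, which lay at 5.34 CPM or less. Cdkn1b, the p27 inhibitor, averaged 8.70 ± 1.95 CPM in Female KO and 11.1 ± 1.80 CPM in Female WT, a log2 fold change of -0.33 (SE 0.16, unadjusted p = 0.0453, edgeR adjusted p = 0.553). In males it averaged 10.8 ± 1.94 CPM in KO and 9.21 ± 1.2 CPM in WT, a log2 fold change of 0.26 (SE 0.15). Between males and females in KO the log2 difference was 0.43 (SE 0.16, edgeR adjusted p = 0.0944). The interaction of Cdkn1b was 0.59 (SE 0.22, unadjusted p = 0.0119, edgeR adjusted p = 0.786). E2f1, the activating factor, and Rb1, its repressor, had averaged log2 fold changes of 0.22 (SE 0.18) and -0.01 (SE 0.19).

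Across the 26 tested genes, edgeR called 0 between KO and WT in females, where 0.193% of all genes were called. At an unadjusted p under 0.05, 9 were higher in KO, where 4.55% of all genes were: Mcm2, Mcm3, Mcm5, Mcm6, Mcm7, Rfc5, Lig1, Rrm1 and Top2a. Mcm6 is counted here although it passed the filter mainly through Female KO, and Mcm5 although it passed partly through Female KO. Only Cdkn1b was lower (4.29% of all genes). DESeq2 and limma-voom also called 0, with 8 and 7 higher at an unadjusted p under 0.05. The median log2 fold change was 0.34, against 0.01 over all genes tested, and 19 of the 26 were positive (51.7% of all genes). For no tested gene did the Female KO and Female WT libraries lie apart, which held for 0.457% of all genes in the higher and 0.616% in the lower direction.

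In males edgeR also called 0 of the 26 genes, with 0.132% of all genes called. Rfc3, Rfc4, Rfc5 and Ccnd1 were higher at an unadjusted p under 0.05 (7.92% of all genes) and 0 were lower (5.2%). DESeq2 and limma-voom called 0, each with 4 higher at that threshold, and limma-voom with sample weights called Rfc5 (adjusted p = 0.0233), in a fit that called 6.02% of all genes. The median log2 fold change was 0.23, against 0.04 over all genes, and 23 of the 26 were positive (55.9% of all genes). No tested gene had male groups that lay apart (0.22% of all genes lay apart and higher, 0.396% lower). Averaged over the sexes 0 were called by edgeR (0.431% of all genes), 1 by DESeq2 (1.46%) and 0 by limma-voom (0.405%). With edgeR 8 were higher at an unadjusted p under 0.05 (8.87%) and 0 lower (6.73%). Of these genes 21 of the 26 were positive (55% of all genes). Rfc5 alone reached that threshold in females as well as in males. The interaction gave 0 calls among the 26 genes and 0 among all genes tested with edgeR. At an unadjusted p under 0.05 it had 1 higher (3.47% of all genes) and 2 lower (2.18%), and DESeq2 and limma-voom called 0 of the 26 as well.

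**Figure D4:**
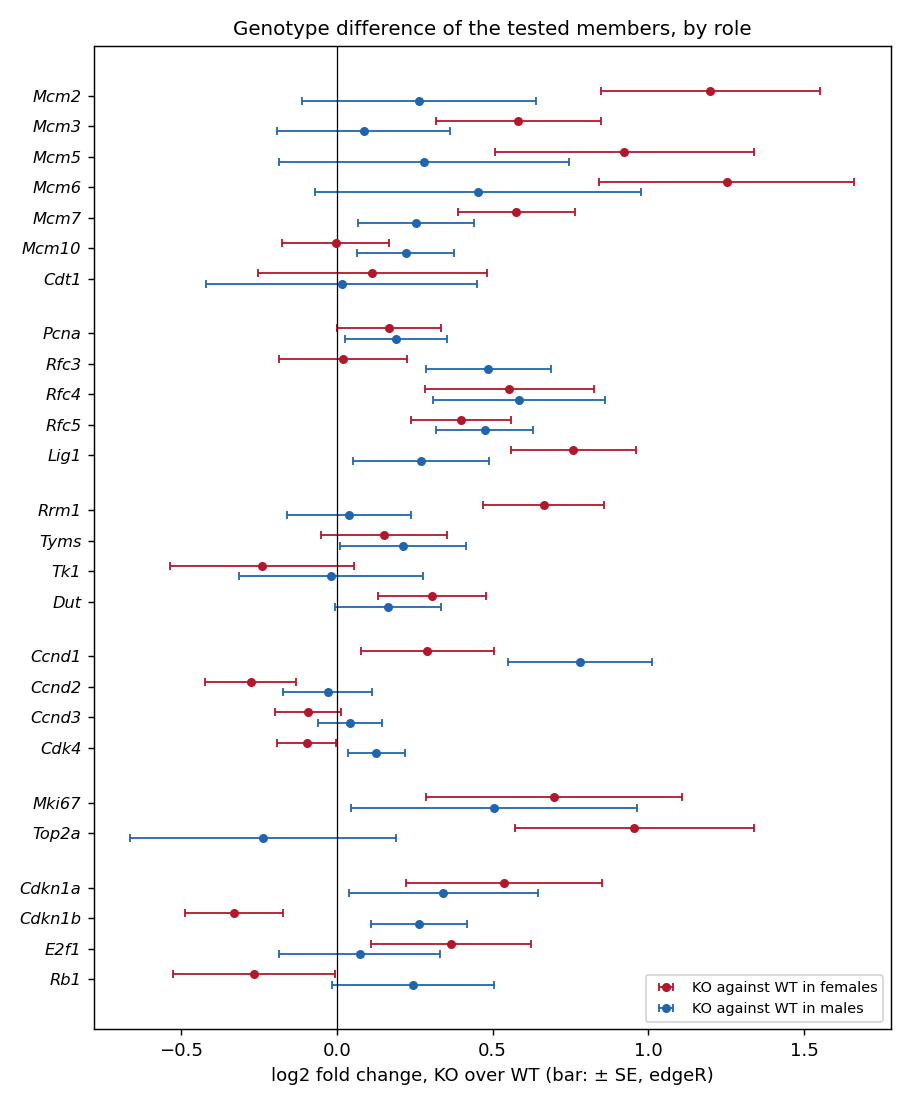
Log2 fold change of KO against WT in females and in males for the 26 tested genes, ordered by role (points are fold changes and bars ± SE by edgeR). Most helicase and fork genes lie right of 0 in females with wide bars, and none of the differences passed after adjustment over all genes.

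Other genes of the same processes were read from lists that hold none of the 40. Of 50 further replication genes 30 were tested, and 0 were called between genotypes. Over all genes 0.193% were called in females, 0.132% in males and 0.431% averaged, so 0 calls in these short lists is near that share. Averaged over the sexes 24 of the 30 were positive (55% of all genes), with a median of 0.13 against 0.03 over all genes. The lowest p-values were those of Orc2, an origin recognition subunit (log2 0.57, SE 0.18), Slbp, which binds histone mRNA (0.37, SE 0.13), the polymerase delta subunit Pold3 (0.41, SE 0.15) and the single-strand binding subunit Rpa2 (0.27, SE 0.12). Their edgeR adjusted p lay between 0.138 and 0.288. Of 49 further mitotic genes 13 were tested and 0 called. Averaged over the sexes Smc2, a condensin subunit, was the only one under an unadjusted p of 0.05 (log2 0.42, SE 0.20). Of all genes 8.87% were higher at that threshold. Of 30 further E2F-RB and cyclin-CDK genes 17 were tested and 0 called between genotypes.

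Cdkn1c, the p57 inhibitor, was lower in males than in females. It averaged 3.14 ± 0.69 CPM in Male KO and 6.67 ± 1.37 CPM in Female KO (SD, n = 6 each), and 2.12 ± 0.60 CPM in Male WT and 5.54 ± 1.5 CPM in Female WT (SD, n = 6 and 5). The log2 fold changes were -0.93 (SE 0.22, edgeR adjusted p = 0.00701) in KO and -1.35 (SE 0.23, edgeR adjusted p = 1.98e-04) in WT, and the sexes did not overlap in either genotype. Of 20 p53 target genes besides Cdkn1a 16 were tested, and 0 were called between genotypes. At an unadjusted p under 0.05, averaged over the sexes, 0 were higher (8.87% of all genes) and 4 were lower (6.73%): Sesn2 (log2 -0.55, SE 0.14, edgeR adjusted p = 0.0745), Bbc3 (-0.52, SE 0.19), Gdf15 (-0.87, SE 0.33) and Trp53inp1 (-0.28, SE 0.14). Between the sexes Plk3 and Rps27l were called higher in males in KO (log2 0.82 and 0.53), as were 3.67% of all genes. Btg2 was called lower in males in WT (log2 -1.68, SE 0.33, edgeR adjusted p = 0.00101), as were 3.25% of all genes.

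Summed levels of markers of other cell types are given beside these genes, and Igkc alone of all the markers was called between genotypes. The 10 markers of sinusoidal endothelium, all tested, summed to 64.9 to 241 CPM in Female KO and 211 to 246 CPM in Female WT. Of these 6 were lower in Female KO at an unadjusted p under 0.05 (4.29% of all genes) and 0 were called. The 12 Kupffer cell and macrophage markers, of which 11 were tested, summed to 106 to 425 CPM in Female KO and 187 to 299 CPM in Female WT, and to 160 to 472 CPM in Male KO and 135 to 211 CPM in Male WT. In males 6 of the 11, Clec4f, Vsig4, Cd5l, C1qa, C1qb and Lyz2, were higher in KO at an unadjusted p under 0.05 (7.92% of all genes), and in females 0 were (4.55%), while edgeR called 0 in either sex. The 8 markers of B and plasma cells summed to 26.2 to 45.4 CPM in Female KO and 12.4 to 18.5 CPM in Female WT, and to 18.3 to 59.3 CPM in Male KO and 11.3 to 17.1 CPM in Male WT. Only Igkc and Ighm of them were tested, and Igkc, the kappa light chain, was higher in KO (averaged log2 1.34, SE 0.21, edgeR adjusted p = 6.64e-04). T and NK markers summed to 2.67 to 6.75 CPM in Female KO and 2.95 to 4.95 CPM in Female WT, with 0 of 8 tested. Of the 8 neutrophil markers 2 were tested, and Ly6g was at 0 in every library. The 10 hepatocyte markers were all detected and summed to 104650 to 128394 CPM in Female KO and 116063 to 133645 CPM in Female WT. The part of these cell types in the differences of the replication genes was not tested.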

How the data were processed

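PolyA RNA of 23 livers was sequenced with 3′ end counting, which reads transcript ends, so that a level is not comparable between genes. For every gene and library the authors deposited an estimated count and a CPM value. Reads were handled, per the submitters' processing notes, with STAR 2.7.11 and the mm39 build, fastp 0.24.0, FastQC 0.12.1 and featureCounts, Subread 2.1.1, besides MultiQC 1.32 and SAMtools 1.22.1. Their settings and the use of strand are not given in the sources used here. The deposited expected counts need not be whole and were rounded for the tests. The deposited CPM values are printed as levels. The table held 0 columns of no sample. Its 65535 gene rows are as many as an older spreadsheet format holds below a header, so it may not list every gene, and totals and shares are over these rows.

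Groups and replicate numbers came from the titles. All 23 libraries entered 1 fit with 1 mean per group (edgeR 4.0.16 quasi-likelihood test in R 4.3.3, TMM scaling, default filterByExpr with a minimum count of 10), which tested 11370 genes. Adjusted p-values are Benjamini-Hochberg over all of these, and a gene is called under 0.05. Unadjusted p-values are from the same edgeR fit. Each SE is the log2 fold change over the root of its F statistic. Genes that failed the filter are called sparse and given as counts. Each p-value sets a group difference against 1 spread estimate per gene, shared by all groups and partly across genes. Groups of unlike spread, such as Female KO and Female WT for the ring subunits, get no separate estimate. The 40 genes, the roles and all other lists were chosen with earlier results of these data known. All 40 could be named, each called gene and up to 10 genes per direction in genotype comparisons (5 in sex comparisons) at an unadjusted p under 0.05 were given in full, and up to 4 genes per further list.

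Overlaps with other genes and promoters are from GENCODE M21 and RefSeq tables of GRCm38, matched by gene ID or symbol, and were not combined with mm39 positions. Of the tested genes 15 overlap another gene, so their counts may hold reads of it. Fractional counts were most frequent for Mki67 (16 libraries) and Pcna (13), then Rfc5 and Tk1 (11 each), and Ccnd1 and Mcm7 had them in 7 libraries each. No libraries of the same group were copies of each other: chi-square per degree of freedom was 2.91 to 35.9 over the 55 pairs within groups. Pairs across groups were not compared. The fit was tested on simulated counts with known fold changes in genes drawn from all genes tested. That does not show how often differences would be found in genes of such low counts. Alternatives were DESeq2 1.42.0, limma-voom (limma 3.58.1), other scalings and filters, fits of the groups compared alone, a replicate block and fits without 1 library.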

Additional observations from a re-analysis of the deposited data

Results flagged for a closer look

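In 104 sets of 1 tested gene in 1 group, 5 held a library far from the others of its group, and chance alone marks about 1 in 20 such sets. Values are CPM after TMM scaling. Cdt1 was at 0 in Male KO replicate 4, with no count, and between 1.1 and 1.97 in the other Male KO libraries. Rfc3 was at 10.1 in Male KO replicate 3, the shallowest library, where it had 13 counts, and between 5.62 and 5.91 in the others. Rfc5 was at 8.19 in Female WT replicate 2 and between 9.14 and 9.42 in the others. Dut was at 5.75 in Female WT replicate 1 and between 8.14 and 8.87 in the others. Rb1 was at 1.78 in Male WT replicate 4, with 8 counts, and between 2.43 and 2.9 in the others.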

How the results depend on the processing

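Of the 156 fold changes of 1 tested gene in 1 comparison, the 40 at an unadjusted p under 0.05 kept their direction in every alternative that tested the gene. Of the other 116, 36 changed sign in at least 1, the largest of them Cdkn1a in males (log2 0.34), and none was called in any. Without 1 library, the share of all genes called between genotypes was 0.112% to 0.276% in females, 0.0606% to 0.436% in males and 0.226% to 1.66% averaged, each time highest without Male KO replicate 2. Leaving out 1 library gave 0 to 1 genes called between genotypes in females and averaged over the sexes, 0 in males and 3 to 5 between the sexes in KO. At an unadjusted p under 0.05 it gave, in females, 6 to 11 higher and 0 to 1 lower, in males 2 to 4 higher, averaged 7 to 13 higher, for the interaction 1 to 3 higher and 0 to 4 lower, and for males against females 4 to 9 lower in KO and 1 to 3 in WT. With no filter 1 gene was called in males (0.51% of all genes) and 1 averaged (0.792%), Ccnd1 in both. With DESeq2 it was 1 averaged (Rfc5, 1.46% of all genes). With limma-voom with sample weights it was 1 in males (6.02%) and 2 averaged (5.52%). The count of genes lower in females was 0 with upper-quartile scaling, no filter, DESeq2 and the 2 groups alone, and 2 with limma-voom. For the interaction, limma-voom with sample weights gave 3 higher and 1 lower, and DESeq2 1 lower. With the 2 groups alone 3 genes were called between the sexes in KO (3.82% of all genes) and 4 were lower at an unadjusted p under 0.05. The sparse genes numbered 3 with a lower filter and 0 with none. Nothing in the labels ties livers of the same number: their deviations correlated between -0.362 and 0.272 across genotypes and between -0.00273 and 0.297, mostly above 0, across sexes, and in no comparison did every pair exceed 0.1. A replicate block changed no call among these genes (1 gene of all tested was called for the interaction), and gave 0 lower in females, 1 lower for the interaction and 1 lower between the sexes in WT. A last setting, chosen after seeing the data, left out Male KO replicate 3 and Female WT replicate 5. Females then had 10 higher and 0 lower, males 2 higher, the average 10 higher and the interaction 0 higher. Between the sexes in KO 3 were called (5.81% of all genes). Cdk4 and Mcm6 missed the threshold there (edgeR adjusted p = 0.0568 and 0.0524). Depth limits the 14 sparse genes, whose totals of 11 to 156 counts leave wide intervals.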
